A study of Mus musculus with 6 samples.

Results

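The 10 genes of the early growth response circuit and its immediate early companions were followed through CUT&Tag profiles of mouse primary cardiac fibroblasts: Egr1, Egr2, Egr3, Nab1, Nab2, Ier2, Ier3, Ier5, Nr4a1 and Mcl1. Members were taken by name, as every region of the 4 deposited tables whose nearest gene carried one of these 10 symbols. This gave 40 of 456310 regions, and 9 of the 10 genes had at least 1. CUT&Tag uses an antibody to direct a transposase to chromatin, and the cut fragments that are sequenced mark the places it occupies.

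The series holds 6 libraries in 2 sets of 3, each from cardiac fibroblasts labelled as heart tissue, with 1 library per group and no replicate. The T set has an NC library (the control, taken as untreated), a TGF-b library and a library labelled TGF-b+SiTAZ. The S set has an NC library, a TGF-b library and a library labelled TGF-b+SiSRF. The labels do not name the antibodies. The study's methods list TAZ and SRF antibodies for CUT&Tag, and the sets are taken here as TAZ (T) and SRF (S) profiles. Those methods describe small interfering RNA (siRNA) against Piezo2, a mechanosensitive ion channel, before TGF-β, whereas the labels name TAZ and SRF, so the siRNA target is uncertain and the third group is called TGF-b+siRNA. The study pairs this siRNA with a scrambled one, and whether the NC and TGF-b libraries had the scrambled siRNA is uncertain. The series' design text also speaks of Tet3 knockout by a Cre virus, of which the sample labels say nothing, and whether all 6 libraries share it is unknown. Age, sex and strain of the mice are not in the labels, and nothing says how many animals gave the cells. Of 9 fibroblast genes checked as markers, 6 had a region within 3 kb of a start site in the T set table of TGF-b and NC, as did 4 of 5 cardiomyocyte, 3 of 4 endothelial and 2 of 4 leukocyte genes. Regions therefore did not separate fibroblast genes from those of other cell types.

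Immediate early genes are transcribed within minutes of a growth factor, stress or stretch signal without new protein synthesis. SRF, which binds the CArG box, is a classic activator of many of them. TAZ has no DNA-binding domain of its own and reaches chromatin mainly through TEAD factors. Egr1, Egr2 and Egr3 encode zinc finger transcription factors that bind GC-rich sites, and EGR1 is known as an effector of TGF-β in fibroblasts. Nab1 and Nab2 encode corepressors that bind EGR proteins, and Nab2 is itself induced by EGR factors, which closes a feedback loop. Ier2, Ier3 and Ier5 encode small nuclear or stress-response proteins, Nr4a1 encodes an orphan nuclear receptor that restrains TGF-β signalling, and Mcl1 encodes a short-lived anti-apoptotic protein of the BCL2 family.

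The sequences upstream of 4 members are shown because the T set regions nearest their start sites carried the clearest differences or were called in more than 1 library, and because these windows hold no annotated exon; Mcl1 had such a region too, but its window lies in an annotated exon and only its motif site is shown further on. They are the 250 bases before the gene start in RefSeq (build GRCm38.p6), 5′ to 3′ on the gene's strand. Capitals mark a TEAD core (GGAATG on either strand) and are absent where there was none. Nab2 lies on the minus strand at chr10:127666704-127666953, Ier5 on the minus strand at chr1:155099637-155099886, Ier3 on the plus strand at chr17:35821463-35821712, and Nr4a1 on the plus strand at chr15:101266596-101266845. None of these 4 windows overlaps an annotated exon.
Nab2: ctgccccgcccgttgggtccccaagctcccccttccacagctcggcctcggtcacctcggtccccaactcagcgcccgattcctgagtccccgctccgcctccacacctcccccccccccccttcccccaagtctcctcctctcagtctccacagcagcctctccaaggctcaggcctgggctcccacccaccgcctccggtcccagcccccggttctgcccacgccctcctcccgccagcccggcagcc
Ier5: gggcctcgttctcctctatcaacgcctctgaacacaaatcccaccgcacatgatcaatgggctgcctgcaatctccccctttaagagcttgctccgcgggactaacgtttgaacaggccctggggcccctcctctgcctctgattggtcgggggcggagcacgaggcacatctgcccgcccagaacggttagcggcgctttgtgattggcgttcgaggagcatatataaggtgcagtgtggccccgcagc
Ier3: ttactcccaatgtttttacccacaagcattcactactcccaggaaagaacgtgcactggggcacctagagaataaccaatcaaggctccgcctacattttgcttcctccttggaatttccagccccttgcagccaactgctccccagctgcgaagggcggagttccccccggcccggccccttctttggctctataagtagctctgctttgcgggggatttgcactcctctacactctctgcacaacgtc
Nr4a1: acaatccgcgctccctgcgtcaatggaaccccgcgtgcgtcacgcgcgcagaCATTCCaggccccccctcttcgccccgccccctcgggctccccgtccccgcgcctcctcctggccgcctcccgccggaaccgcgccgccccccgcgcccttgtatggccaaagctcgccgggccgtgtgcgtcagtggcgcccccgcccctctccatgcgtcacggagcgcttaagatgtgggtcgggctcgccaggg

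In all, 3 motifs were searched on both strands of windows from 250 bases before to 50 bases after the gene start, which were at hand for 7 of the 10 members (11 windows). These were the CArG box of SRF, the TEAD core GGAATG and the EGR core GCGTGGGCG, and no match of one overlapped another in these windows. By gene, a CArG box was found in 1 of the 7 members, against 1.81% of 27025 genes with a window. The TEAD core was found in 4 of 7, against 16.6% of genes, and the EGR core in 1 of 7, against 0.707%. By window, 4 of 11 held a CArG box (all of Egr2, some of them overlapping), 4 of 11 a TEAD core and 1 of 11 an EGR core, against 1.63%, 14.7% and 0.612% of 32851 windows. The matches are shown in 30 or 29 bases each with the motif in capitals. Windows of Egr1, Egr3 and Ier2 were not analysed here. Egr2, the one with a CArG box among the 7 searched, had 2 of them, at chr10:67537494-67537503 and chr10:67537797-67537806, each starting at -72 from an annotated start. Its TEAD core lies at chr10:67537439-67537444. Both EGR cores belonged to Nab1, at chr1:52500549-52500557 and chr1:52500581-52500589 (the first on the gene's strand, which is the minus strand, the second on the plus strand), beside a TEAD core at chr1:52500650-52500655. The TEAD core of Mcl1 lies at chr3:95658522-95658527. For Nab1, as for Mcl1, all 250 bases before the start lie in annotated exon sequence. In the Egr2 windows that hold the second CArG box, 203 of the 250 do. A match is a description of letters, and occupancy of these sites was not measured.
Egr2, CArG box: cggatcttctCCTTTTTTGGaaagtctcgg
Egr2, CArG box near a downstream start: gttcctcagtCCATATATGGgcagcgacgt
Egr2, TEAD core: gtttaattttccGGAATGgctcccaaacaa
Nab1, EGR core: actcggccgcGCGTGGGCGggagccggag
Nab1, EGR core on the other strand: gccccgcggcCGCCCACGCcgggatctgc
Nab1, TEAD core: ccagctgccgtgGGAATGggccacccccgg
Mcl1, TEAD core on the other strand: ccgagcaggaacCATTCCccgggaagccaa

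Each table compares 2 libraries of a set and gives, per region, a normalized read density for each library in a 2 kb window. The whole read counts behind the densities were recovered from the values and are given as reads; intervals are 95% counting intervals of the log2 ratio and cover counting error only. Regions were thinly covered, with a median of 5 to 10 reads per library over each whole table. The median log2 ratio of all regions was -0.65 for TGF-b over NC and 0.97 for siRNA over TGF-b in the T set, and -0.20 and -0.21 for the same comparisons in the S set. Member ratios are read beside these medians. Coordinates of the regions follow GRCm39, and distances run from the region's centre to the nearest annotated start site, negative upstream.

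The first question was how the T set profile at these genes differed between TGF-b and NC. The divergent start of the corepressor gene Nab2 and of Nemp1, and the start sites of Ier5 and Mcl1 had about 3-fold more signal with TGF-b, while the main Egr1 regions had equally strong signal in both libraries and 2 regions within Nab1 had reads in NC alone. In all, 20 of 170890 regions belonged to members, from 9 genes, and no region was assigned to Egr2. At least 2-fold higher density with TGF-b was found at 5 of 20, against 17.3% of all regions. At least 2-fold lower density was found at 5 of 20, against 42.1% of all regions. Centred on the median of all regions, 8 were higher and 3 lower, against 26.7% and 27.2% of all regions so centred. The median log2 ratio of the 20 was 0.24, against -0.65 over all regions. It was 0.16 against -0.18 within 3 kb of a start site, and 0.00 against -0.20 with 1 leading region per gene. Within 3 kb of a start site, 4 of 16 member regions were higher and 4 of 16 lower by that measure, against 19.2% and 29.2% of 28392 such regions. Since neighbouring 2 kb windows share reads, the 20 regions stand for 14 separate stretches. A region enters the table when it is called as a peak in at least 1 of the 2 libraries: 12 of the 20 were called in NC only, 5 with TGF-b only and 3 in both. A region called in 1 library alone entered through the library where it was called, so its direction can partly follow from that. Regions called in NC only went both ways. The 2 within Nab1 were lower with TGF-b, while the Egr1 3′ UTR region and the Nab2 region inside Nemp1 were higher.

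**Figure D1:**
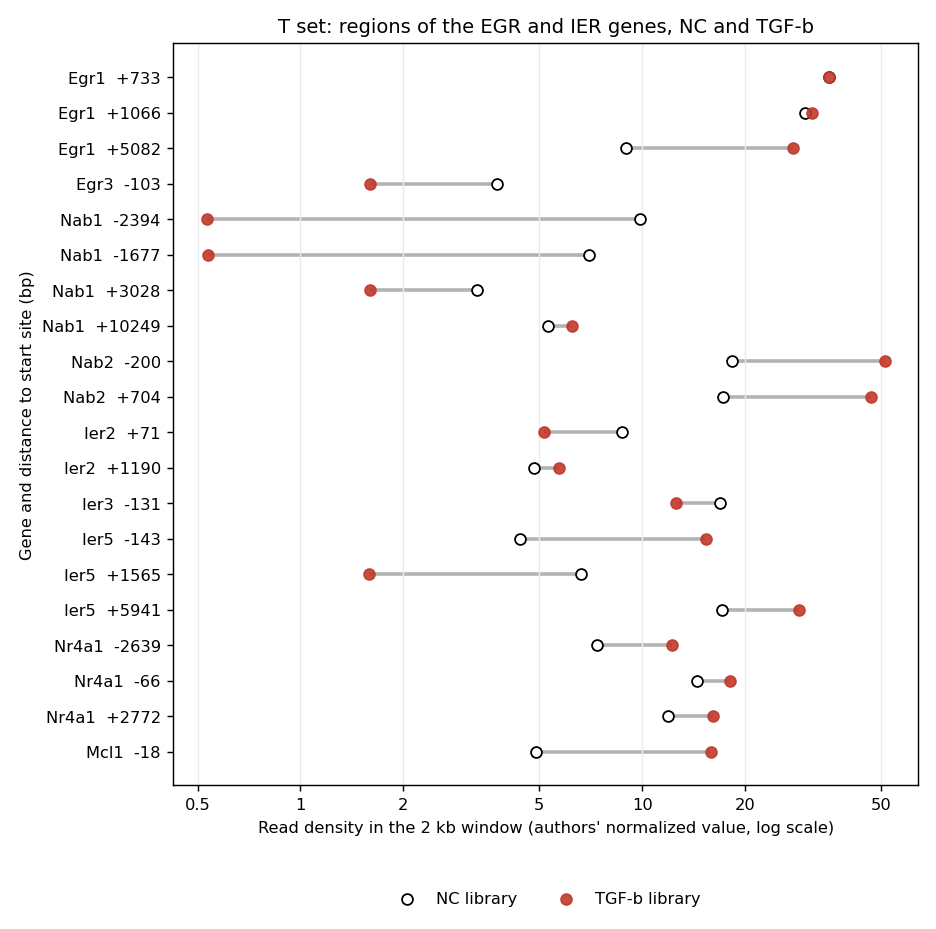
Normalized read density (log axis) in the NC library (open circles) and the TGF-b library (filled circles) of the T set for the 20 member regions, each named by its gene and its distance to the start site in bp. The Nab2 pair moved from 18.3 and 17.2 to 51.2 and 46.8, whereas the Egr1 region at 733 bp stayed at 35.2 and 35.3.

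Among the EGR genes, Egr1 (ENSMUSG00000038418) had the strongest signal in NC of any member. Its region at chr18:34993527-34993691, in the 5′ UTR, held 68 reads in NC and 71 with TGF-b, at densities of 35.2 and 35.3. The log2 ratio was 0.00 (interval -0.48 to 0.48), and these densities exceeded those of 98.4% and 97.3% of the regions within 3 kb of a start site. A second 5′ UTR region at chr18:34993907-34993978, whose window overlaps the first, held 58 and 63 reads. The third Egr1 region behaved otherwise. At chr18:34997911-34998006, in the 3′ UTR, 17 reads in NC stood against 54 with TGF-b, a log2 ratio of 1.62 (interval 0.90 to 2.46). Egr3 (ENSMUSG00000033730) had 1 sparse promoter region at chr14:70314515-70314584, with 7 reads in NC and 2 with TGF-b, a log2 ratio of -1.23 whose interval (-3.71 to 0.46) includes 0.

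The EGR corepressor genes Nab2 and Nab1 had ratios on opposite sides of 0 in their leading regions. Nab2 (ENSMUSG00000025402) had a promoter region at chr10:127502567-127502992, centred at -200 bp, with 35 reads in NC and 103 with TGF-b. Its densities were 18.3 and 51.2, 2.80-fold higher with TGF-b, for a log2 ratio of 1.48 (interval 0.96 to 2.06). This was the highest density of any member with TGF-b, above 99.2% of the regions within 3 kb of a start site. A neighbouring region at chr10:127503679-127503787, with an overlapping window, was assigned to Nab2 at 704 bp from a start of one of its transcripts and is annotated as intron 1 of Nemp1 (ENSMUSG00000040195), which runs in the opposite direction from a start at 127503013. It held 33 and 94 reads, a log2 ratio of 1.44 (interval 0.90 to 2.04). The part of each gene in this signal cannot be told apart. Nab1 (ENSMUSG00000002881) had 2 regions with overlapping windows, before the start of a short transcript inside the gene, that were called in NC only and so entered the table through the library where they are high. The one in intron 5, at chr1:52508575-52508645, held 20 reads in NC and 0 with TGF-b, at least 4.61-fold lower when the empty library is set to 3 reads. The other, at chr1:52507858-52507929, held 14 and 0 reads, at least 3.26-fold lower. Its remaining regions held 6 and 2 reads (intron, log2 ratio -1.03, interval -3.51 to 0.72) and 10 and 11 reads (downstream, log2 ratio 0.23).

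The 3 IER genes did not move together. Ier5 (ENSMUSG00000056708), a regulator of heat shock factor activity, had a promoter region at chr1:154975425-154975625, centred at -143 bp, with 8 reads in NC and 29 with TGF-b. The density was 3.50-fold higher with TGF-b, for a log2 ratio of 1.81 (interval 0.83 to 3.03), the highest of the 20 regions, and the region was called with TGF-b only. A region downstream of the gene at chr1:154969320-154969562 held 33 and 57 reads, a log2 ratio of 0.75 (interval 0.16 to 1.38). Its 3′ UTR region at chr1:154973782-154973852 went the other way, with 13 reads in NC and 2 with TGF-b, a log2 ratio of -2.07 (interval -4.53 to -0.56). Ier3 (ENSMUSG00000003541), an apoptosis and stress response gene, had a promoter region at chr17:36132301-36132589 that was called in both libraries. It held 33 reads in NC and 24 with TGF-b, a log2 ratio of -0.42 (interval -1.19 to 0.31) that turned above 0 once the median of all regions was subtracted. Ier2 (ENSMUSG00000053560) held 17 and 9 reads in its 5′ UTR (log2 ratio -0.76, interval -1.96 to 0.31) and 9 and 10 reads in its 3′ UTR (log2 ratio 0.25). Neither Ier2 region differed beyond counting error.

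Nr4a1 and Mcl1 both had signal at the promoter. Nr4a1 (ENSMUSG00000023034) held 28 reads in NC and 35 with TGF-b at chr15:101164542-101164781, a region called in both libraries, for a log2 ratio of 0.32 (interval -0.38 to 1.04). Its 2 other regions, whose windows overlap, held 23 and 31 reads (intron) and 14 and 23 reads (exon). All 3 log2 ratios lay above 0 (0.32 to 0.74), and all 3 intervals include 0. Mcl1 (ENSMUSG00000038612) held 9 reads in NC and 30 with TGF-b at chr3:95566036-95566265, centred at -18 bp and called with TGF-b only. This was 3.25-fold higher with TGF-b, a log2 ratio of 1.70 (interval 0.75 to 2.85). Over the 20 regions, the interval lay wholly above 0 for 6, wholly below 0 for 3, and included 0 for 11, where it lay above 0 for 14.8% and below 0 for 31.1% of all regions.

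**Figure D2:**
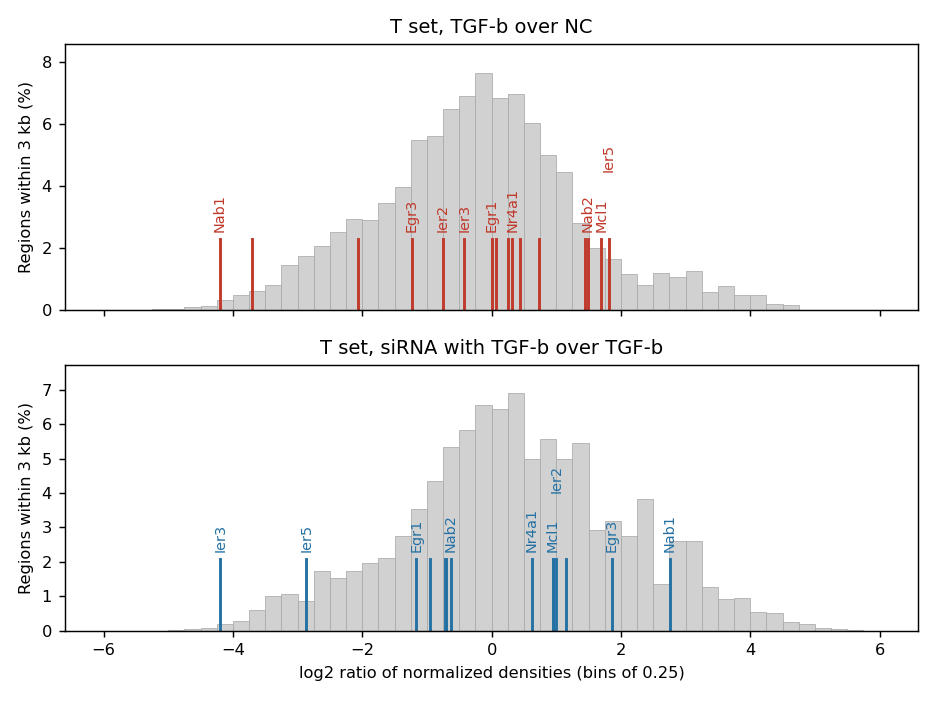
Log2 ratios of normalized densities in the 2 T set tables (upper panel TGF-b over NC, lower panel siRNA with TGF-b over TGF-b); grey bars give the percent of all regions within 3 kb of a start site in bins of 0.25, coloured lines the member regions, and names the leading region of each gene. The lines at -4.20 in both panels, at -3.70 in the upper and at 2.76 in the lower are regions with 0 reads in a library, so their position rests on the 1 read added to each count; the others run from -2.07 to 1.81 and from -2.86 to 1.86.

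The second question was how the siRNA library differed from the TGF-b library in the T set. The promoters of Ier3 and Ier5 lost most of their reads and Egr1 and Nab2 had lower density with siRNA, while Mcl1 had higher density (log2 ratio 0.95), near the median of all regions (0.97) and above that of regions within 3 kb of a start site (0.33). Of the 180118 regions here, 17 belonged to members, again from 9 genes and without Egr2, in 13 separate stretches. At least 2-fold higher density with siRNA was found at 4 of 17, against 49.7% of all regions, and at least 2-fold lower density at 4 of 17, against 16.2%. The split became 1 higher and 9 lower when centred on the median of all regions, against 29.2% and 28.9% of all regions so centred. Without the authors' scaling 2 were higher and 9 lower, against 41.6% and 21.6%. The median log2 ratio of the members was -0.63, against 0.97 over all regions, and within 3 kb of a start site it was -0.63 against 0.33. With 1 leading region per gene the sign turned, at 0.62 for the 9 members against 0.45 for all genes. At least 2-fold, 3 of the 9 were higher and 3 lower, against 37.4% and 19.4% of the leading regions of all genes. Within 3 kb of a start site, 4 of 15 were higher and 3 of 15 lower, against 34.5% and 19.6% of 27754 such regions. With the median of all regions subtracted, 13 of the 17 lay below 0, where 9 did before. Of the 17, 6 were called with TGF-b only, the Ier3, Ier5 and Egr1 regions among them, 9 with siRNA only and 2 in both.

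**Figure D3:**
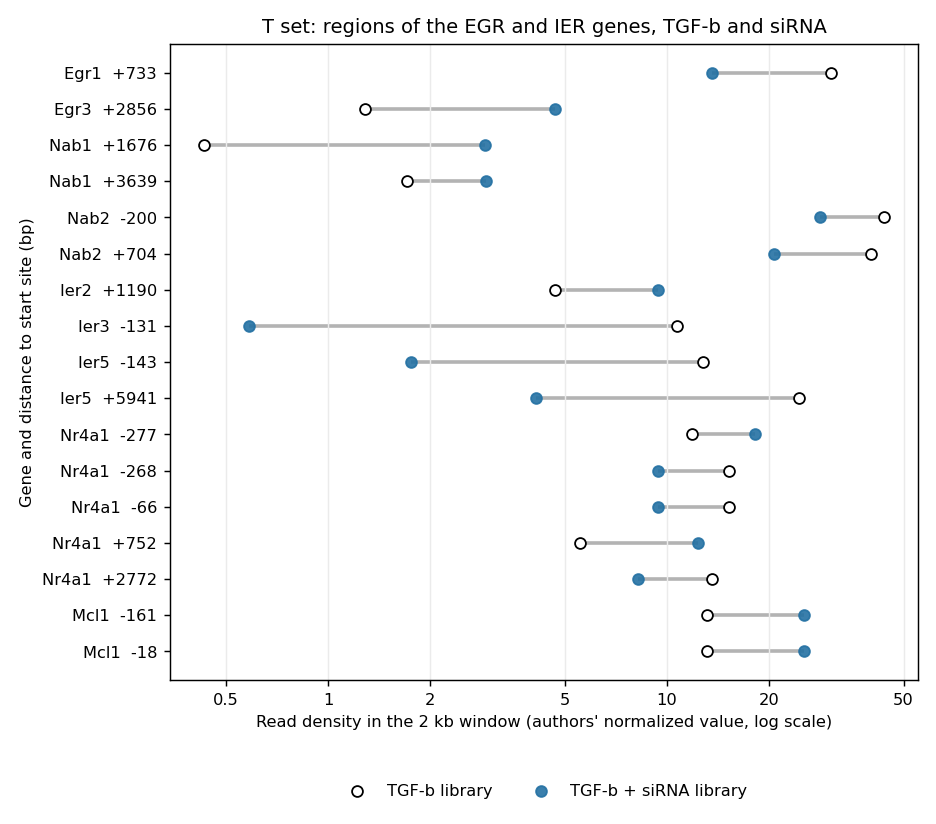
Normalized read density (log axis) in the TGF-b library (open circles) and the TGF-b+siRNA library (filled circles) of the T set for the 17 member regions, named by gene and distance to the start site in bp. The widest gaps to the left belong to Ier3, from 10.7 to 0.58, and to the Ier5 promoter, from 12.8 to 1.76.

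Ier3 and Ier5 showed the largest losses. The Ier3 promoter region held 24 reads with TGF-b and 0 with siRNA, at least 4.58-fold lower with the empty library set to 3 reads. The Ier5 promoter region held 29 and 2 reads, 7.28-fold lower with siRNA (log2 ratio -2.86, interval -5.32 to -1.48). Its downstream region held 57 and 6 reads, 5.98-fold lower (log2 ratio -2.58, interval -3.96 to -1.60). The 3′ UTR region of Ier2 held 10 reads with TGF-b and 15 with siRNA, a log2 ratio of 1.004, close to the median of all regions, with an interval from -0.08 to 2.17, so no difference was detectable at this depth.

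Of the EGR genes, Egr1 kept a single region in this table, the 5′ UTR region at 733 bp. It held 71 reads with TGF-b and 22 with siRNA, densities of 30.5 and 13.6, for a log2 ratio of -1.17 (interval -1.89 to -0.53). Even so, its density with siRNA exceeded that of 85.6% of the regions within 3 kb of a start site. Egr3 had a 3′ UTR region at chr14:70319008-70319080 with 2 and 7 reads, a log2 ratio of 1.86 (interval 0.17 to 4.34). That region is not the promoter region of Egr3 in the other table.

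Both regions assigned to Nab2 were lower with siRNA. The promoter region held 103 reads with TGF-b and 47 with siRNA, a log2 ratio of -0.63 (interval -1.14 to -0.15), and the region within Nemp1 intron 1 held 94 and 34, a log2 ratio of -0.96 (interval -1.54 to -0.42). Neither change reached 2-fold on the authors' scale. Both did without that scaling, at log2 ratios of -1.12 and -1.44. They also did once the median of all regions was subtracted, at -1.60 and -1.93. Nab1 had only sparse intron regions, with 3 and 4 reads (log2 ratio 0.77, interval -1.13 to 2.86) and with 0 and 4 reads, for which no fold is given. Neither lies where its NC regions lay.

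Nr4a1 had 5 regions with both directions among them. At the promoter, 2 regions with identical values, at chr15:101164406-101164513 and chr15:101164542-101164781, held 35 reads with TGF-b and 15 with siRNA (log2 ratio -0.70, interval -1.61 to 0.11). The intron region held 31 and 13 reads (log2 ratio -0.72, interval -1.70 to 0.13). By contrast, the region at chr15:101151755-101151991, before the start of another annotated transcript, held 27 and 30 reads (log2 ratio 0.62, interval -0.11 to 1.37), which became -0.35 once the median of all regions was subtracted. An exon region at chr15:101171460-101171528 held 12 and 20 reads, 2.23-fold higher (log2 ratio 1.16, interval 0.19 to 2.21). Its log2 ratio became 0.19 once the median of all regions was subtracted, and 0.69 without the authors' scaling. Mcl1 was higher with siRNA in 2 adjoining regions that share 1 window of 30 and 42 reads, a log2 ratio of 0.95 (interval 0.29 to 1.63), which became -0.02 once the median of all regions was subtracted. Over the 17 regions, the interval lay wholly above 0 for 5, wholly below 0 for 6, and included 0 for 6, where it lay above 0 for 38.9% and below 0 for 11.4% of all regions. The 5 above 0 include both Mcl1 regions, which are 1 window.

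In the T set, 10 member regions of 7 genes were present in both T set tables. Each so has a read count for all 3 libraries, which was 0 with siRNA at Ier3. The TGF-b library is the same in both tables, and its reads were equal in all 10, so a high count there raises the first ratio and lowers the second. The comparisons are therefore given side by side and are not independent of each other. Reads in the order NC, TGF-b and siRNA were 35, 103 and 47 at the Nab2 promoter and 33, 94 and 34 in the neighbouring region inside Nemp1. They were 8, 29 and 2 at the Ier5 promoter, and 33, 57 and 6 downstream of Ier5. These reads are not scaled to the depth of a library. In each of these 4 regions the TGF-b library was the highest. Egr1 held 68, 71 and 22 reads, and Ier3 held 33, 24 and 0, so that NC and TGF-b lay together and siRNA below. Nr4a1 held 28, 35 and 15 reads at the promoter and 23, 31 and 13 in the intron. Mcl1 held 9, 30 and 42 reads and Ier2 held 9, 10 and 15, with siRNA the highest in both. By the 2-fold measure, 4 of the 10 were higher with TGF-b, 4 were lower with siRNA, and 1, the Ier5 promoter, was both. Of the 58623 regions with identical coordinates in both tables, 46.7% were higher with TGF-b, 47.2% lower with siRNA and 27.3% both, so these 10 do not exceed that background.

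**Figure D4:**
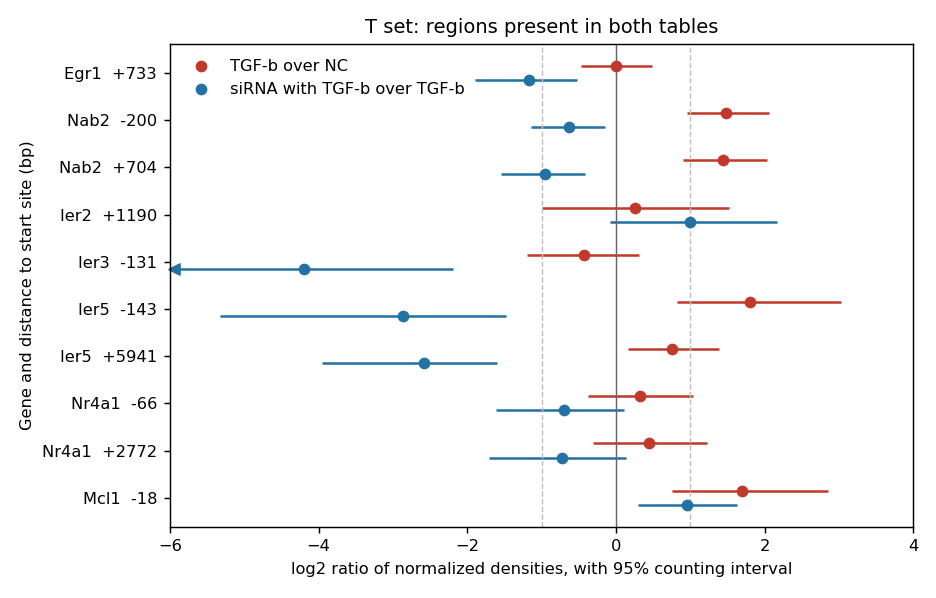
Log2 ratios with 95% counting intervals for the 10 member regions present in both T set tables, TGF-b over NC in red and siRNA with TGF-b over TGF-b in blue; dashed lines mark 2-fold, and the arrow marks an interval with no lower limit because the siRNA library held 0 reads. The Ier5 promoter lies at 1.81 and -2.86, Nab2 at 1.48 and -0.63, and Mcl1 at 1.70 and 0.95.

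The S set gave little at these genes. For TGF-b over NC, 3 of 52723 regions belonged to members, each called in the NC library alone. Nab2 was assigned a region at chr10:127504099-127504278, 249 bp from a start site and again in intron 1 of Nemp1, with 11 reads in NC and 24 with TGF-b (log2 ratio 0.50, interval -0.44 to 1.58). Egr3 had a promoter region at chr14:70315478-70315558 with 8 and 12 reads (log2 ratio -0.04, interval -1.24 to 1.26). Nab1 had an intron region at chr1:52517655-52517752 with 6 and 4 reads (log2 ratio -1.08, interval -2.90 to 0.54). All 3 intervals include 0. None was at least 2-fold higher and 1 of 3 was at least 2-fold lower, against 17.4% and 26.7% of all regions; without the authors' scaling 1 was higher and 0 lower, against 32.7% and 15.3%. For siRNA over TGF-b, 0 of 52579 regions belonged to members, where 15.1% of all regions were at least 2-fold higher and 27.8% lower. Egr1, Egr2, Ier2, Ier3, Ier5, Nr4a1 and Mcl1 thus had no region in either S set table. A missing region says only that none was called there, and reads at these genes in the S set were not analysed here. No S set member region overlapped one of the T set.

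A list of 36 other immediate early genes, taken by their leading region (the densest within 3 kb of a start site, or else the nearest), gives the setting. In the T set, 28 had a region for TGF-b over NC, of which 7 were at least 2-fold higher and 3 lower, against 20% and 30.7% of the leading regions of all genes, with a median log2 ratio of 0.50, against -0.20 over all genes. The highest were Csrnp1 (25 and 74 reads, log2 ratio 1.51) and Nr4a2, a relative of Nr4a1 (6 and 17 reads, 1.47). The lowest were Egr4, the fourth EGR gene (10 and 0 reads), and Fosl1, an AP-1 subunit (29 and 10 reads, -1.38). For siRNA over TGF-b, 30 had a region, of which 4 were higher and 4 lower, against 37.4% and 19.4% of all genes, with a median of -0.12, against 0.45. Phlda1 was the lowest (42 and 6 reads, -2.15), followed by the AP-1 subunit Fosl2 (80 and 20 reads, -1.47), and Plk2 (0 and 10 reads) and the TAZ target Ccn1 (5 and 13 reads, 1.68) were the highest. The leading regions of the 9 members had medians of 0.00 and 0.62 in these comparisons. Over all regions of the other immediate early genes, the medians were 0.18 and 0.12. For TGF-b over NC, 19 of these 85 regions were higher and 22 lower, against 17.3% and 42.1% of all regions. For siRNA over TGF-b, 22 of 78 were higher and 9 lower, against 49.7% and 16.2%.

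In the S set, 8 of the 36 genes had a region for TGF-b over NC and 12 for siRNA over TGF-b. For TGF-b over NC, 4 of the 8 held 10 or more reads in a library: Atf3 (2 and 15 reads, log2 ratio 1.82), Fosl2 (6 and 22 reads, 1.15), Nr4a2 (3 and 11 reads, 0.99) and Trib1 (9 and 25 reads, 0.82). Over all 8, 2 were at least 2-fold higher and 1 lower, against 20.6% and 22.3% of the leading regions of all genes, 3 lay below 0, and the lowest log2 ratio was -3.44. With siRNA, among 9 genes with enough reads, Junb (5 and 20 reads, 1.90) and Nr4a3 (7 and 14 reads, 1.005) were the highest, and Fosl2 (22 and 12 reads, -0.75) and Dusp6 (17 and 11 reads, -0.51) the lowest. A further list held 12 regulator genes: those of SRF, its ELK and MRTF cofactors, TAZ, YAP and the TEAD factors. All 12 had a region in each T set table. By their leading regions 3 were higher and 2 lower with TGF-b, and 6 higher and 1 lower with siRNA. Among the leading regions of all genes the shares were 20% and 30.7% with TGF-b, and 37.4% and 19.4% with siRNA. In the S set 10 and 9 of the 12 regulator genes had a region.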

How the data were processed

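CUT&Tag reads of 6 libraries, 1 per group, were processed by the authors into 4 tables, each with 2 libraries of a set. The study's methods name Bowtie2, GRCm39 and Masc2 (so spelled), whereas the submitters' processing notes name mm10 and BWA 0.7.12; in the tables only 1 of 9 member genes overlaps its place in GRCm38.p6, the reference at hand, and coordinates are taken as GRCm39, so no sequence was read by peak coordinates and motifs were searched only in RefSeq promoter windows. Each deposited signal value is a normalized read density, (reads + 1) × 0.5 in a 2 kb window around the summit, rescaled along a straight line. Undoing the line gave whole reads, within 0.1 read, for 99.98% to 99.99% of regions in each table; the recovery was tested on simulated data. Tables were normalized separately and share no scale. Columns of the authors' own ratios and p-values were not used, and all ratios were computed from the 2 densities (Python 3.11.15, pandas 2.3.3, scipy 1.17.1).

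With 1 library per group there is no replicate check and no test was made. Differences are described by a 2-fold threshold and by a 95% interval (Wilson) of the share of reads in 1 library, turned into a log2 ratio with the table's scaling. PCR duplicates are not independent molecules. A region with 0 reads in a library was set to 3 reads for a lower bound. All 10 members are named. Single regions are given at 2-fold or more with at least 10 reads in 1 library, as are the leading regions, and the remaining ones are given because they are few; of the other immediate early genes, the 2 highest and 2 lowest with at least 10 reads in 1 library are named. The members and lists were chosen with earlier results of these data known. The alternatives were a pseudocount, a density minimum, a 1.5-fold threshold, centring, undoing the scaling, a floor of 3 reads, regions near a start site and, chosen after seeing the data, 1 region per shared window. No spike-in value was used.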

Additional observations from a re-analysis of the deposited data

Results flagged for a closer look

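The median log2 ratio of member regions for TGF-b over NC was 0.24 in the T set (20 regions) and -0.0444 in the S set (3 regions). It is listed because the signs are opposite with 1 library per group; the difference was not tested, the 2 medians rest on different regions, and without the authors' scaling the S set median was 0.53.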

How the results depend on the processing

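Depth limits these values: 5 of 20 member regions of the T set for TGF-b over NC and 5 of 17 for siRNA over TGF-b had 3 or fewer reads in a library, and no replicate exists. No paired analysis was possible because each group has 1 library and no test was made. The 10 regions present in both T set tables have identical coordinates there, so an overlap rule of 50% could not change their number.

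For TGF-b over NC in the T set, the count of regions at least 2-fold lower went from 5 to 3 with a pseudocount of 1 density unit, with reads of 3 or fewer set to 3, with 1 region per shared window (chosen after seeing the data) and when centred on the median of all regions, and to 2 among regions at or above the median density. Centring took the count of higher regions from 5 to 8 and the median log2 ratio from 0.24 to 0.89. For siRNA over TGF-b in the T set, higher regions went from 4 to 2 at or above the median density and without the authors' scaling, to 1 when centred and to 8 at 1.5-fold. Lower regions went from 4 to 9 at 1.5-fold, when centred and without the scaling. The median went from -0.63 to -1.60 when centred and to -1.12 without the scaling. The Mcl1 promoter went from 0.95 to -0.0205 when centred. For TGF-b over NC in the S set, the 1 lower region became 0 with the pseudocount, at or above the median density, when centred, without the scaling and within 3 kb of a start site. Without the scaling, higher regions went from 0 to 1 and the median from -0.04 to 0.53. These shifts with centring and scaling follow from their construction, which adds nearly the same amount to every region.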
